A study of Mus musculus with 4 samples.

Results

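Hemoglobin and heme synthesis genes were followed in AML c-Kit+ cells that overexpressed the H3K9 methyltransferase Suv39h1. The set had 9 genes, the adult globin genes Hba-a1, Hba-a2, Hbb-bs and Hbb-bt and the heme synthesis genes Alas1, Alas2, Alad, Urod and Fech. They were taken by Ensembl gene ID from the 23552 genes of a deposited table of FPKM (fragments normalised to exon length and sequencing depth), and all 9 were found. Control cells carried control-eGFP overexpression and SUV-OE cells carried Suv39h1-eGFP overexpression. In both groups the mice were C57BL/6 with an acute myeloid leukemia driven by the MLL-AF9 fusion (MA9), the cells were c-Kit+ leukemic cells enriched from bone marrow, and the mice were moribund when the cells were taken. The study made these cells by lentiviral transduction of MA9 cells and transplanted them into recipients, and enrichment on c-Kit can also keep c-Kit+ progenitors of the host. RNA-Seq covered 4 libraries, all labelled batch 2. They are called CT_3 and CT_4 for replicates 3 and 4 of control and OE_2 and OE_3 for replicates 2 and 3 of SUV-OE, with 19905342 to 23353115 reads per library as recovered from the FPKM. Nothing in the labels says that the libraries of a group came from separate mice, so p-values measure only the spread between these libraries, which may be technical.

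Adult hemoglobin is a tetramer of alpha globin and beta globin chains, each of which holds a heme. Heme is built in a pathway that starts and ends in the mitochondrion, opens with 5-aminolevulinate synthase and closes when ferrochelatase inserts iron into protoporphyrin. Every cell makes some heme for cytochromes and other enzymes with the housekeeping synthase Alas1, whereas erythroid cells use the erythroid synthase Alas2 and produce globin and heme in bulk. In bulk RNA, fewer cells of a type and less RNA per cell cannot be told apart.

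The alpha globin genes lie on chromosome 11 of GRCm38 (mm10), Hba-a1 at chr11:32283511-32284465 and Hba-a2 at chr11:32296489-32297298, both on the plus strand, with Hbq1b between them. The beta globin genes lie on the minus strand of chromosome 7, Hbb-bs at chr7:103826534-103828096 and Hbb-bt at chr7:103812524-103813996. Among the heme synthesis genes, Alas2 is at chrX:150547375-150570638 on the plus strand. Alas1 is at chr9:106233455-106248654, Alad at chr4:62509169-62519918 and Urod at chr4:116989965-116994413, each on the minus strand, and Fech is described with its values.

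Promoter sequences are shown for the globin genes and Alas2 because CT_3 was lowest and CT_4 highest for these 5 genes, as given further on. That order was also found for 8.82% of all genes tested, and the order of OE_2 and OE_3 differed between Alas2 and the globin genes. Each is the 250 bases before the gene's RefSeq start in GRCm38.p6, written 5′ to 3′ on the gene's strand, and the GENCODE gene start lay inside each of these windows. Capitals mark the motifs searched, which were AGATAA for GATA factors (also with T in place of the first A, G in place of the last, or both), the letters CACCC for KLF factors and the letters CCAAT for the CCAAT box, each on both strands. The letters ATATAA for the TATA box were searched on the strand shown. Overlapping matches run together in the capitals. The windows are chr11:32283422-32283671 for Hba-a1, chr7:103827929-103828178 for Hbb-bs, chr7:103813924-103814173 for Hbb-bt and chrX:150547167-150547416 for Alas2.
Hba-a1: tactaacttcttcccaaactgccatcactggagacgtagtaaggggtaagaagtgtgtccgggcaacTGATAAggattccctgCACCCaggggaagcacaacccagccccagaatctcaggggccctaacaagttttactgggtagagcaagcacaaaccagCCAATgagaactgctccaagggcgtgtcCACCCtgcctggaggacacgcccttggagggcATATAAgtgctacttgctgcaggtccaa
Hbb-bs: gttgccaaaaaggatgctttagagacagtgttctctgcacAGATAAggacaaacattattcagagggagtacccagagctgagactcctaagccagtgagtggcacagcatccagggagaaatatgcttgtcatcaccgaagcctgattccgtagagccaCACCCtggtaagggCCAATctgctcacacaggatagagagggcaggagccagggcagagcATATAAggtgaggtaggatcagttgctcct
Hbb-bt: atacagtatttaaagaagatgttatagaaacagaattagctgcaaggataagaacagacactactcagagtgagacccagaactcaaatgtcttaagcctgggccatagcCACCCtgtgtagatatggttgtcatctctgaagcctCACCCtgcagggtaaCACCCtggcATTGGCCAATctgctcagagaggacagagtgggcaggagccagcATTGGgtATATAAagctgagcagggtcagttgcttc
Alas2: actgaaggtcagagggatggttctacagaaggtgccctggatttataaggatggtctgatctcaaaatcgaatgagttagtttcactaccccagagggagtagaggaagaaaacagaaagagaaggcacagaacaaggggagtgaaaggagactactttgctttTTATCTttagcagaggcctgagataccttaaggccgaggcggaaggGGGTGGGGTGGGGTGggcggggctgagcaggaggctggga

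The Hba-a1 and Hba-a2 windows were identical over 247 bases with a shift of 3 bases, so the Hba-a2 window is not printed. Compared without gaps at a shift of 1 base, Hbb-bs and Hbb-bt were identical at 127 of 249 positions (51.0%). A comparison that allows gaps was not made and could give a higher share. The Hba-a1, Hba-a2 and Hbb-bs windows held all 4 kinds of motif, as did 0.299% of 32817 RefSeq promoter windows of the same length. Hbb-bt held the other 3 kinds but none of the GATA letters searched, and Alas2 held a GATA match 86 bases before the start and 3 CACCC matches. In the globin windows ATATAA began 28 to 31 bases before the start. Taken singly, the motifs were common, since 26.6% of all windows held a GATA match, 52% a CACCC match and 33.8% a CCAAT match, whereas 5.57% held ATATAA. These matches are descriptions of the letters and were not tested as binding sites.

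The libraries were checked before the members were read. Suv39h1, the overexpressed gene, had an FPKM of 12.4 in CT_3, 12.4 in CT_4, 75.3 in OE_2 and 81.2 in OE_3, and rose by 2.56 on the log2 scale (SE 0.11, limma adjusted p = 0.00866). Kit, the receptor used for the enrichment, was detected in every library, at 20.4 FPKM in CT_3, 19.2 in CT_4, 28.6 in OE_2 and 25.4 in OE_3. Both SUV-OE libraries lay above both controls for Kit (log2 fold change 0.43, SE 0.12, limma adjusted p = 0.160). CT_3 stood apart from the other 3 libraries in transcripts of other tissues. Lens crystallin genes summed to 0.0434 FPKM in CT_3, with 8 of 9 listed at 0, and to 55.8 to 65.9 in the others. Pancreatic acinar genes, which encode digestive enzymes, summed to 14.1 FPKM in CT_3, with 20 of 27 listed at 0, and to 118 to 138 in the others. Hepatocyte genes summed to 8.49 FPKM in CT_3 and to 0.943 to 1.35 in the others, and it was the highest library for 10 of 10. These 3 lists were written after the nearest neighbours of the globin pattern had been seen. The part of this split in any result was not tested, and the globin, Alas2 and Fech results are given with each control alone.

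SUV-OE was compared with control on the log2(FPKM + 1) scale in limma, over 13736 genes whose mean FPKM reached 0.5. A differentially expressed gene (DEG) had a Benjamini-Hochberg adjusted p under 0.05 and a log2 fold change of 1 or more in either direction. All 9 members were tested. None of the 9 was a DEG by limma, against 168 DEGs or 1.22% of all genes tested, and 1 of the 9, Fech, had an unadjusted p under 0.05, against 20.7% of all genes tested. limma-voom on the recovered reads called 1 of 9 members, again Fech, against 4.66% of the 14275 genes it tested. The 168 DEGs were 112 up (0.815%) and 56 down (0.408%), those of limma-voom 3.57% up and 1.09% down of the genes it tested, and the split was 188 up and 47 down when FPKM were rescaled to an equal sum without the globin genes. Leaving out any 1 of the 4 libraries left 0 DEGs by limma, with 1166 to 3877 genes at an unadjusted p under 0.05.

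Globin transcripts differed far more between the control libraries than between SUV-OE and control. Each of the 4 globin genes was lowest in CT_3, highest in CT_4 and intermediate in both SUV-OE libraries. Summed over the 4 genes, the FPKM was 12.9 in CT_3, 137 in CT_4, 90.7 in OE_2 and 62.6 in OE_3. On the log2 scale the sum was 0.84 higher in SUV-OE, with an SD of 2.41 between the controls and 0.38 between the SUV-OE libraries, and the exact two-sided permutation test gave p = 1, where 2 against 2 libraries cannot go below 0.333.

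The FPKM of Hbb-bs, an adult beta globin gene, was 5.24 in CT_3, 63.2 in CT_4, 38.9 in OE_2 and 28.7 in OE_3. These values correspond to 88, 921, 595 and 441 reads at an exon length fitted to give whole reads. The control libraries thus enclosed both SUV-OE libraries, and the log2 fold change was 0.78 (SE 1.10, limma adjusted p = 0.719). Hbb-bt, which encodes a closely related chain, had 2.05 FPKM in CT_3, 13.7 in CT_4, 11.5 in OE_2 and 7.44 in OE_3. The order of libraries was that of Hbb-bs, with a log2 fold change of 0.62 (SE 0.76, limma adjusted p = 0.680).

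Hba-a1, an adult alpha globin gene, had 5.06 FPKM in CT_3, 47.7 in CT_4, 35.8 in OE_2 and 23.1 in OE_3. Its groups overlapped in the same way, and the log2 fold change was 0.80 (SE 0.99, limma adjusted p = 0.685). Hba-a2, the other adult alpha globin gene, had 0.539 FPKM in CT_3, 12.2 in CT_4, 4.56 in OE_2 and 3.29 in OE_3. Only 7 reads stood behind the lowest of these values and 137 behind the highest. The log2 fold change of Hba-a2 was 0.12 (SE 1.01, limma adjusted p = 0.960), the smallest of the 4 globin genes.

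**Figure D1:**
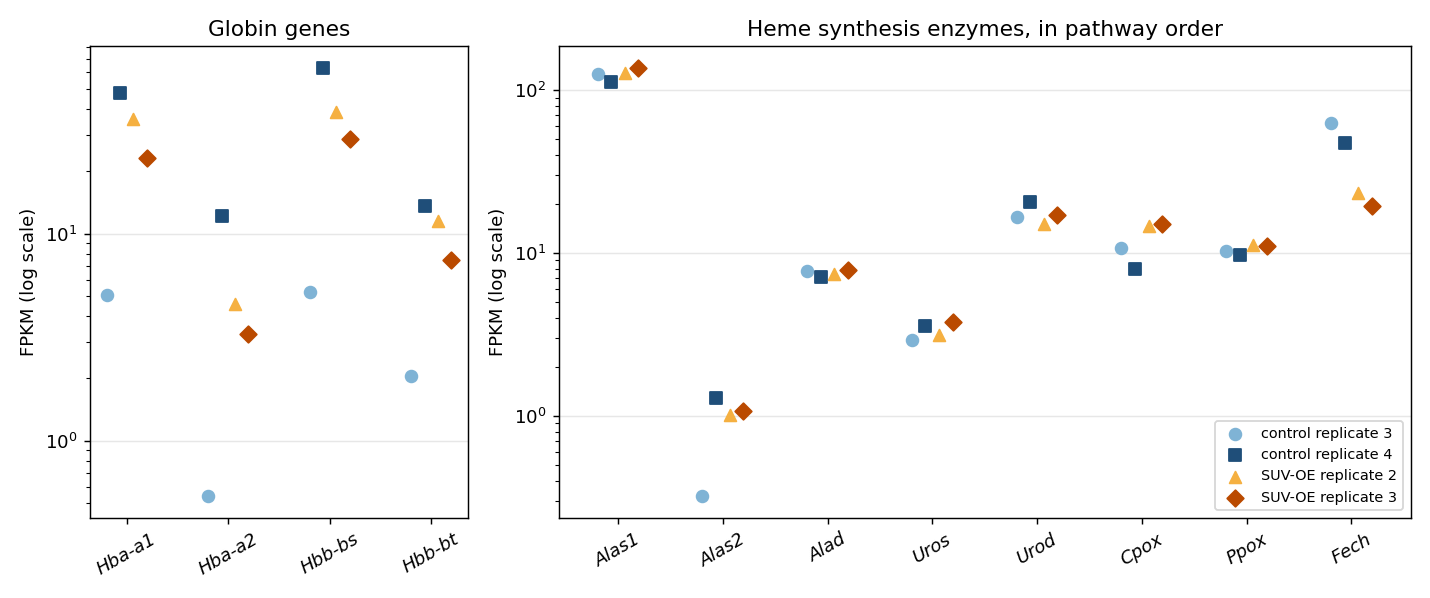
FPKM on a log axis for the 4 globin genes (left) and 8 enzymes of heme synthesis in pathway order (right), with 1 point per library for CT_3, CT_4, OE_2 and OE_3. CT_3 is the lowest point for each globin gene and for Alas2, CT_4 is the highest point for the same genes, and for Fech both SUV-OE points (23.2 and 19.5) lie under both control points (62.4 and 47.4).

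The split between the controls was large against the rest of the transcriptome. On the log2(FPKM + 1) scale, CT_4 exceeded CT_3 by 3.36 for Hbb-bs, 3.10 for Hba-a2, 3.0 for Hba-a1 and 2.27 for Hbb-bt. Only 4 of the 13736 genes tested had a larger difference in that direction than Hbb-bs, and 37 had a larger one than Hbb-bt. A difference of at least 1 in that direction was found in all 4 globin genes and in 3.03% of all genes tested. In either direction, such a difference was found in 4.18% of all genes tested between the controls and in 1.87% between the SUV-OE libraries. The globin genes lay closer together in SUV-OE, with OE_3 lower than OE_2 by 0.38 to 0.61 over the 4 genes.

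The direction of the globin comparison depended on which control was used. Against CT_3 alone, the log2 fold changes were 2.46 for Hbb-bs, 2.30 for Hba-a1, 1.75 for Hbb-bt and 1.67 for Hba-a2. Against CT_4 alone they were -0.90, -0.71, -0.52 and -1.43 in the same order. The median over the 4 genes was 0.70 with both controls, 2.02 against CT_3 and -0.80 against CT_4, while the median of all genes tested stayed between -0.02 and -0.01. None of these single-control values was a DEG. limma gave adjusted p of 0.117 to 0.130 against CT_3 and 0.186 to 0.385 against CT_4, in fits that called 0 genes of all tested, with 3877 and 3151 genes at an unadjusted p under 0.05.

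Although the level moved over a range of 10.6-fold, the balance of the chains did not follow it. The ratio of summed beta to summed alpha globin FPKM was 1.30 in CT_3, 1.29 in CT_4, 1.25 in OE_2 and 1.37 in OE_3. Within each pair the balance varied more. Hbb-bs to Hbb-bt was 2.56 in CT_3 and 3.39 to 4.63 in the others, and Hba-a1 to Hba-a2 was 3.92 in CT_4 and 7.03 to 9.39 in the others. The paralogs share sequence, since 57.0% of the 150-base windows of Hba-a1 also occurred in Hba-a2 and 45.6% of those of Hbb-bs in Hbb-bt, so how reads were divided within each pair is uncertain. How the authors treated reads that match both paralogs is not given in the sources used here.

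Alas2, the erythroid 5-aminolevulinate synthase, was lowest in CT_3 and highest in CT_4, as were the globin genes. Its FPKM was 0.321 in CT_3, 1.28 in CT_4, 1.01 in OE_2 and 1.08 in OE_3, from 15 to 52 reads. CT_4 above and CT_3 below both SUV-OE libraries was found for all 4 globin genes and Alas2, and for 8.82% of all genes tested. The log2 fold change was 0.23 (SE 0.30, limma adjusted p = 0.690), and it was 0.63 against CT_3 alone and -0.16 against CT_4 alone. Alas2 was not among the genes nearest to the globin pattern, and on the log2(FPKM + 1) scale its difference between the controls was 0.79. By the Euclidean distance between centred log2(FPKM + 1) values over the 4 libraries, 438 genes outside the globin set were closer to the mean globin profile than Alas2.

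The 10 genes closest to the mean globin profile by that distance, at 0.510 to 0.680, were the small RNA genes Snora33, Scarna9, Gm25193, Gm26384 and Mir6976, the pseudogene Gm8451, the pancreatic enzyme genes Cela2a, Ctrl and Cel and the lens crystallin gene Crygc. No red cell gene of the lists used here was among them. The globin sum thus shared its lowest library with the lens and pancreatic transcripts, although these were at a like level in the other 3 libraries (118 to 138 FPKM for the acinar genes) where the globin sum ran from 62.6 to 137. The distance is a description over 4 libraries and carries no test.

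The housekeeping synthase Alas1 was the most abundant member, at 125 FPKM in CT_3, 112 in CT_4, 127 in OE_2 and 137 in OE_3. Both SUV-OE libraries lay above both controls, as for 25.4% of all genes tested, with a log2 fold change of 0.16 (SE 0.14, limma adjusted p = 0.583). It was 0.07 against CT_3 alone and 0.24 against CT_4 alone. On this per-length scale Alas1 exceeded Alas2 by 391-fold in CT_3, 87.3-fold in CT_4, 126-fold in OE_2 and 127-fold in OE_3. Alas1 and Alas2 each overlap a gene on the opposite strand, and whether the authors counted by strand is not given in the sources used here.

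In the middle steps of the pathway the groups overlapped. Alad, which joins a pair of 5-aminolevulinate molecules into porphobilinogen, had 7.69 FPKM in CT_3, 7.13 in CT_4, 7.38 in OE_2 and 7.88 in OE_3 (log2 fold change 0.04, SE 0.12, limma adjusted p = 0.879), and OE_2 lay between the controls. Urod, which removes carboxyl groups from uroporphyrinogen, had 16.6 FPKM in CT_3, 20.6 in CT_4, 15.1 in OE_2 and 17.1 in OE_3 (log2 fold change -0.19, SE 0.15, limma adjusted p = 0.527). The OE_3 value lay between the controls, and the log2 fold change was -0.04 against CT_3 alone and -0.34 against CT_4 alone.

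Fech, the ferrochelatase that inserts iron into protoporphyrin, lies on the minus strand of chromosome 18 (chr18:64452914-64490251) and had the largest absolute log2 fold change of the 9 members. Its FPKM was 62.4 in CT_3, 47.4 in CT_4, 23.2 in OE_2 and 19.5 in OE_3, from 17595, 11595, 5975 and 5035 reads, also at a fitted exon length. Both SUV-OE libraries were below both controls, as for 28.4% of all genes tested, and the mean FPKM was 54.9 ± 10.6 (SD, n = 2) in control and 21.4 ± 2.61 (SD, n = 2) in SUV-OE. The log2 fold change was -1.31 (SE 0.18, limma unadjusted p = 0.000933, adjusted p = 0.0576), so that Fech missed the adjusted threshold. In limma-voom the log2 fold change was -1.35 with an adjusted p of 0.0115. Of all genes tested, 220 had a smaller p in limma and 73 a lower log2 fold change. Unlike the globin genes, Fech kept its direction against each control, at -1.51 (SE 0.15, limma adjusted p = 0.121) against CT_3 alone and -1.12 (SE 0.15, limma adjusted p = 0.186) against CT_4 alone.

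**Figure D2:**
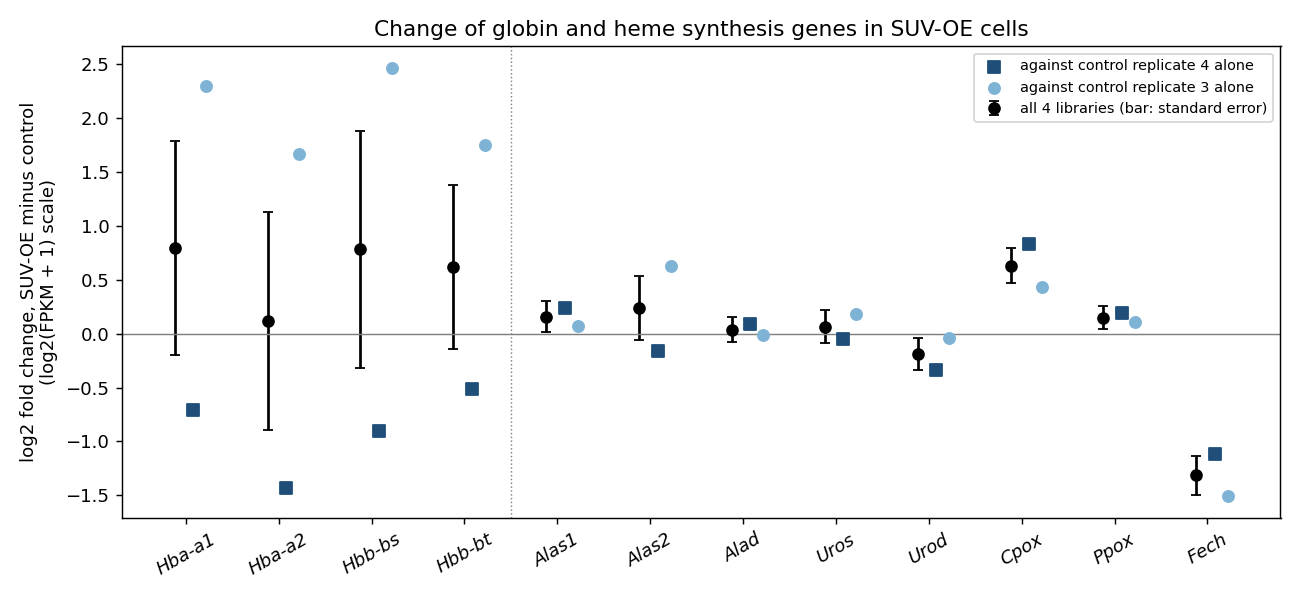
Log2 fold change of SUV-OE against control on the log2(FPKM + 1) scale for the 4 globin genes and 8 enzymes of heme synthesis, with black points for all 4 libraries (bar, standard error) and squares and circles for the fits against CT_4 or CT_3 alone. The globin genes and Alas2 lie above 0 against CT_3 and below 0 against CT_4, whereas Fech lies between -1.51 and -1.12 in each fit shown and Cpox between 0.43 and 0.83.

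Cpox, Ppox and Uros are enzymes of the pathway outside the member list. None of the 3 was a DEG by limma or limma-voom, and 1, Cpox, had an unadjusted p under 0.05. Cpox, the mitochondrial coproporphyrinogen oxidase, had 10.8 FPKM in CT_3, 7.92 in CT_4, 14.7 in OE_2 and 15.0 in OE_3, with a log2 fold change of 0.63 (SE 0.17, limma adjusted p = 0.148). Ppox, the protoporphyrinogen oxidase, was at 10.3 and 9.65 FPKM in CT_3 and CT_4 and at 11.3 and 11 in OE_2 and OE_3 (log2 fold change 0.15, limma adjusted p = 0.494). Uros, the uroporphyrinogen III synthase, overlapped between the groups at 2.92 to 3.74 FPKM (log2 fold change 0.06, limma adjusted p = 0.841).

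The level of Fech was also set against those of neighbouring enzymes. The ratio of Fech to Cpox FPKM was 5.79 in CT_3, 5.98 in CT_4, 1.58 in OE_2 and 1.30 in OE_3. Relative to Ppox, which makes the porphyrin that Fech uses, it was 6.07 and 4.91 in CT_3 and CT_4 and 2.06 and 1.77 in OE_2 and OE_3. Both ratios separated the groups, but this follows from the values above and adds no support to the Fech result. Both SUV-OE libraries were below both controls for Fech and above both for Cpox and Ppox. That order fixed the exact two-sided permutation p at 0.333 for each ratio, the smallest the design allows. The summed FPKM of the 5 heme synthesis members was 212 and 188 in CT_3 and CT_4 and 174 and 183 in OE_2 and OE_3, a log2 difference of -0.17 (exact two-sided permutation p = 0.333), and Alas1 made up most of this sum.

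Genes for heme and iron transport and iron-sulfur cluster assembly in the mitochondrion showed a median log2 fold change of -0.23 over the 15 of 16 that were tested, against -0.02 over all genes tested. None of the 15 was a DEG by limma or limma-voom, 4 had an unadjusted p under 0.05 (20.7% of all genes tested did), and both SUV-OE libraries lay below both controls for 8 of the 15 (28.4% of all genes tested). The lowest log2 fold change was that of Pgrmc1, a heme-binding membrane protein that associates with ferrochelatase, at 58.4 and 46.3 FPKM in CT_3 and CT_4 and at 27.6 and 25.9 in OE_2 and OE_3 (log2 fold change -0.93, limma adjusted p = 0.0758). Iscu, the scaffold on which iron-sulfur clusters are assembled, had a log2 fold change of -0.67 (limma adjusted p = 0.114), and Abcb10, a transporter of the inner mitochondrial membrane, one of -0.49 (limma adjusted p = 0.155).

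None of the 11 genes for iron uptake, storage and regulation was a DEG by limma or limma-voom, 1 had an unadjusted p under 0.05, and their median log2 fold change was -0.05. Over all genes tested, 1.22% were DEGs, 20.7% had an unadjusted p under 0.05 and the median was -0.02. Ncoa4, which delivers ferritin for breakdown, was at 80.4 and 84.0 FPKM in CT_3 and CT_4 and at 46.5 and 51.7 in OE_2 and OE_3 (log2 fold change -0.73, limma adjusted p = 0.0797). The ferritin light chain gene Ftl1 had a log2 fold change of -0.39 (limma adjusted p = 0.488) and the iron-responsive aconitase Aco1 one of -0.28 (limma adjusted p = 0.244). The value of Ftl1 was -0.64 against CT_3 alone and -0.15 against CT_4 alone. Of 10 genes for heme export, sensing and breakdown, 9 were tested, none was a DEG by limma or limma-voom, and 1, the biliverdin reductase Blvrb, had an unadjusted p under 0.05 (log2 fold change 0.36, limma adjusted p = 0.214). Abcg2, an exporter of porphyrins, had a log2 fold change of -0.36 (limma adjusted p = 0.450) and Flvcr1, a heme exporter, one of 0.19 (limma adjusted p = 0.475). The value of Abcg2 was -0.07 against CT_3 alone and -0.65 against CT_4 alone.

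Most other red cell genes had another library order than the globin genes. Of 25 genes for the red cell membrane and erythroid maturation, 16 were tested, 2 were DEGs, both up, 12 had an unadjusted p under 0.05, and both SUV-OE libraries lay above both controls for 11. Of all genes tested, 1.22% were DEGs, 20.7% had an unadjusted p under 0.05 and 25.4% had both SUV-OE libraries above both controls. However, 9 of the 16, Ermap among them, reached the mean FPKM of 0.5 only through the SUV-OE libraries, so the counts over tested genes describe genes partly selected for being higher there. Over all 25 genes, tested or not, both SUV-OE libraries lay above both controls for 19. The share of all genes, tested or not, with this order was not counted. The 25.4% covers tested genes only, so the count of 19 has no background to be read against. The genes of the list that were not tested had a mean FPKM under 0.5, where few reads set the order of libraries. Aqp1, the water channel of red cells that endothelium also expresses, rose from 1.02 and 0.744 FPKM in control to 7.42 and 6.17 in SUV-OE (log2 fold change 2.05, limma adjusted p = 0.0253). Ermap, an erythroid membrane-associated protein, rose from 0.311 and 0.168 FPKM to 2.63 and 2.14 (log2 fold change 1.45, limma adjusted p = 0.0434). limma-voom, which tested 23 of these genes, called 12, all up, against 3.57% of all genes it tested. Of 10 genes for erythroid transcription factors and the erythropoietin receptor, 1 was a DEG, Tal1, a regulator shared by erythroid, megakaryocyte and stem cells, at 0.200 and 0.271 FPKM in CT_3 and CT_4 and at 2.54 and 2.23 in OE_2 and OE_3 (log2 fold change 1.45, limma adjusted p = 0.0405). In that list 7 of 10 had an unadjusted p under 0.05 (20.7% of all genes tested), and both SUV-OE libraries lay above both controls for 8 (25.4% of all genes tested). limma-voom called 4 of the 10 up, namely Gata1, Klf1, Tal1 and Gfi1b, against 3.57% of all genes it tested. Of the 10, 3 reached the filter only through SUV-OE, Tal1 and Gfi1b among them. Without any 1 library, limma called none of Aqp1, Ermap and Tal1, in fits that called 0 of 13736 genes, while the log2 fold changes ran from 1.93 to 2.17 for Aqp1, 1.35 to 1.55 for Ermap and 1.39 to 1.52 for Tal1.

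The erythroid and megakaryocyte regulator Gata1 was low in every library, at 0.485 and 0.899 FPKM in CT_3 and CT_4 and 2.89 and 2.56 in OE_2 and OE_3 (log2 fold change 1.15, limma adjusted p = 0.0735). limma-voom called it, with a log2 fold change of 2.04 and an adjusted p of 0.0250. The summed FPKM of the 25 genes was 38.7 in CT_3, 38.1 in CT_4, 66.2 in OE_2 and 58.8 in OE_3. The globin sum divided by this sum was 0.333 in CT_3, 3.59 in CT_4, 1.37 in OE_2 and 1.06 in OE_3, so these sums had different orders of libraries. Within the 25 genes, however, Rhd and Icam4 had CT_3 lowest and CT_4 highest, as did the globin genes. In CT_3, CT_4, OE_2 and OE_3, Rhd was at 2.58, 4.61, 4.31 and 4.41 FPKM and Icam4 at 1.08, 1.76, 1.55 and 1.49. Of the embryonic and other globins, Hbq1b was at 0 to 0.082 FPKM and was not tested, and the others were not analysed here.

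**Figure D3:**
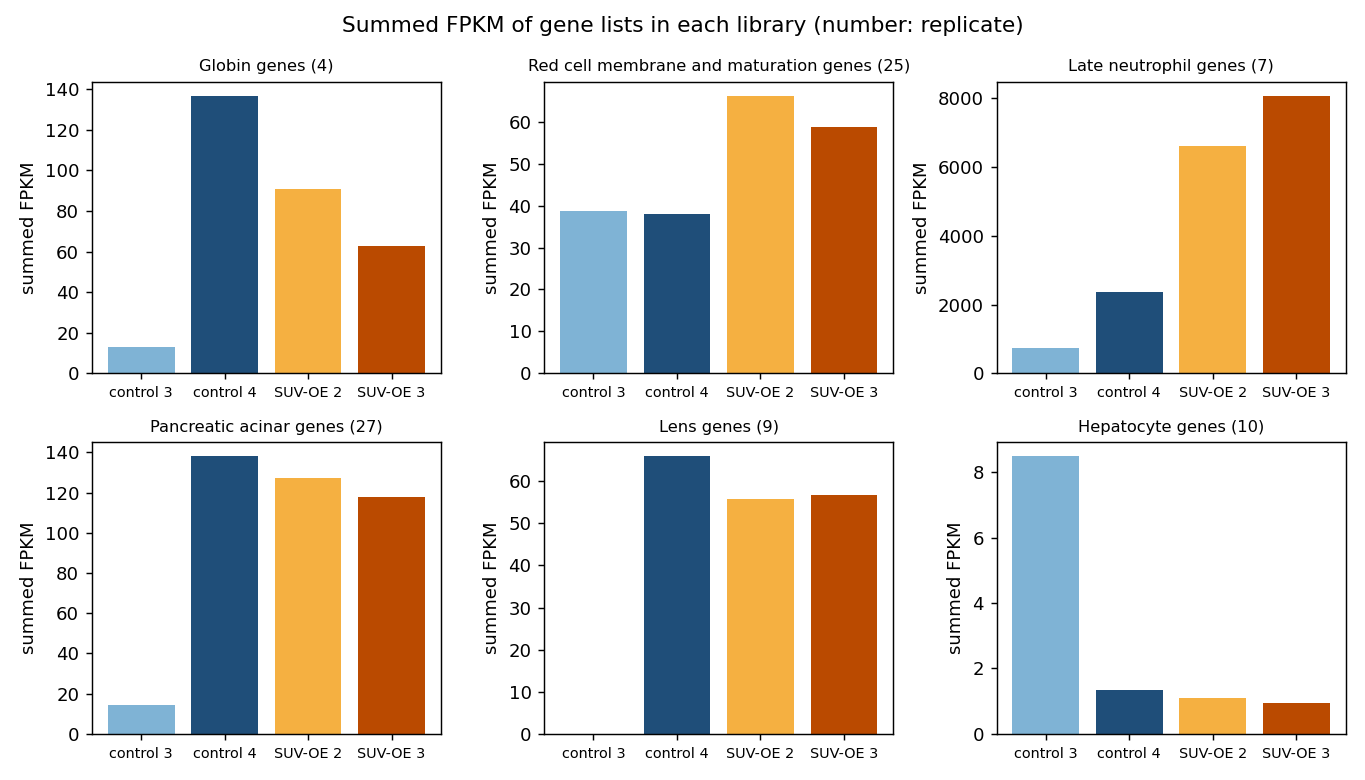
Summed FPKM of 6 gene lists in each of the 4 libraries, on linear axes that start at 0, with 1 bar per library and the number of genes in the title of each panel. The globin sum (12.9 to 137) and the pancreatic acinar and lens sums share CT_3 as their lowest library, the hepatocyte sum is highest there, and the red cell membrane and maturation sum and the late neutrophil sum are higher in both SUV-OE libraries than in both controls.

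Markers of other blood cells also differed between the libraries. Of the 7 late neutrophil genes, all 7 had an unadjusted p under 0.05 (20.7% of all genes tested) and 1, the lactoferrin gene Ltf, was a DEG by limma (1.22%), while limma-voom called 5 up (3.57% of all genes it tested). The 7 genes summed to 746 FPKM in CT_3, 2366 in CT_4, 6616 in OE_2 and 8065 in OE_3. Their lowest library was that of the globin genes, but their highest were the SUV-OE libraries, with a median log2 fold change of 2.84 against CT_3 alone and 1.59 against CT_4 alone. The 7 myeloid progenitor and granule markers summed to 3725 to 5901 FPKM, which exceeded the globin sum in every library. The globin transcripts were a small part of each library, at 203 to 1873 reads or 0.000869% to 0.00891% of the recovered reads. The part of these other cells in the values of the members was not tested.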

How the data were processed

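RNA-Seq was measured in 4 libraries of AML c-Kit+ cells, 2 control and 2 SUV-OE. Libraries were made with the TruSeq RNA v2 kit. The submitters' processing notes name CASAVA 1.8 and TopHat2, and the paper gives mm10 as the build and names Cufflinks for the FPKM. The annotation release is not given in the sources used here. In the table the authors deposited, each gene has 1 FPKM in each library. No sample column was left unused.

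The test was limma 3.58.1 (R 4.3.3) on log2 of FPKM plus a pseudocount of 1, over genes whose mean FPKM reached 0.5, with the group as the only term and an intensity trend. Fold changes on this scale understate the change of low genes. Adjusted p-values are Benjamini-Hochberg values over all genes tested. DEG thresholds were an adjusted p under 0.05 and a log2 fold change of 1 or more in either direction. Positions and exon lengths came from GENCODE M21, and promoter sequences from RefSeq, which gave promoter windows for 8 members. The Fech promoter was not used here.

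The FPKM of 78.5% of genes were whole multiples of 1 read at the GENCODE exon length, within a tolerance of 0.01. For other genes, Hbb-bs, Alas1 and Fech among them, the nearest length that gave whole reads was taken. Cufflinks need not give whole reads, so the counting tool behind the values is uncertain, and with it the recovered reads and the limma-voom values. Recovered reads per library were 19905342 to 23353115, and the floor of 3 reads on 1 kb corresponds to 0.154 to 0.178 FPKM, for counting error alone. Reads were used in limma-voom only, for genes whose mean reached 10 reads. On simulated reads for 13466 genes, with a dispersion of 0.01, limma called 88.2% of 187 genes changed by a fold of 4 and 15 unchanged genes. That dispersion was set in advance and not estimated from these libraries. The recovered share therefore does not carry over to genes that vary more, such as the globin genes.

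The members and gene lists were chosen with earlier results of these data known, and the lens, pancreatic, hepatocyte and muscle lists after the globin pattern had been seen. Named genes were the members, Suv39h1 and Kit, the DEGs of each other list or otherwise up to 3 genes with the largest absolute log2 fold change, and the 10 genes nearest to the globin pattern. Gata1, Klf1, Gfi1b and Hbq1b were named after their values were seen. Some genes under the rule are not reported here. Alternatives were another pseudocount, other filters, 3 scalings, no trend, limma-voom and leaving out each library.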

Additional observations from a re-analysis of the deposited data

How the results depend on the processing

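The 168 DEGs became 0 with no filter on low values (4177 genes with an unadjusted p under 0.05), 665 in limma-voom, and 0 without any 1 library. Members called were 1 in limma-voom and 0 elsewhere. The 3 other heme, iron and erythroid DEGs became 1 with a pseudocount of 0.1, 0 with no filter, 5 with an equal sum without the globin genes, 6 with no trend, 16 in limma-voom and 0 without any 1 library. The log2 ratio of the heme synthesis sum was -0.057 with the equal sum. Without 1 library, the log2 ratio of the globin sum ran from -0.86 to 2.55, and log2 fold changes ran from -0.71 to 2.30 for Hba-a1, -1.43 to 1.67 for Hba-a2, -0.90 to 2.46 for Hbb-bs, -0.52 to 1.75 for Hbb-bt, -0.16 to 0.63 for Alas2, -0.011 to 0.086 for Alad and -0.048 to 0.18 for Uros. Each globin gene and Alas2 was below 0 without control replicate 3, and Hba-a2 was also below 0 without SUV-OE replicate 2 (-0.07). Uros was at -0.032 after quantile normalization. The causes were not tested. Fech had an adjusted p of 0.0501 to 0.138 in the other limma settings with all libraries, and 0.121 to 0.379 without 1 library. Of 230 values for 29 genes under the 8 settings with all libraries, 219 kept direction and call. A lone library is assumed to vary like the others. No paired analysis was possible because just 1 replicate number occurs in both groups. With 2 libraries a group and 7 reads at the lowest globin value, small differences were not detectable.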

Other observations

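The 16 mitochondrially encoded genes summed to 10151 FPKM in CT_3, 19902 in CT_4, 12679 in OE_2 and 13853 in OE_3, so CT_3 was lowest and CT_4 highest, as for the globin genes. Skeletal and heart muscle genes, a further list written after the data were seen, summed to 0.641 to 0.827 FPKM with no library apart. Megakaryocyte markers summed to 6.78 and 13 FPKM in control and 24.4 and 28.9 in SUV-OE. B-lymphoid markers summed to 18.5 and 27.5 FPKM in control and 35.8 and 79.4 in SUV-OE. Neither list held a DEG by limma, with 3 of 4 and 6 of 7 tested genes at an unadjusted p under 0.05, and limma-voom called 3 genes of each. Over all genes the shares were 20.7% at an unadjusted p under 0.05 and 4.66% called by limma-voom. Of the 7 B-lymphoid markers, 4 reached the mean FPKM of 0.5 only through the SUV-OE libraries.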
